A study of Mus musculus with 10 samples.

Results

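Peaks of H3K4me2, histone H3 with 2 methyl groups on lysine 4, which marks enhancers and promoters, were examined around 8 genes of the follicular helper T cell programme: Cxcr5, Bcl6, Il21, Icos, Pdcd1, Il21r, Cd40lg and Slamf1. A peak belonged to one of them when that gene was the nearest RefSeq protein-coding gene within 100 kb on the mm10 mouse genome. By this rule 199 of 152121 peaks in 8 libraries were members. Merged across libraries where they lay within 500 bp of each other, they formed 44 of 30062 regions, between 1 region for Bcl6 and 9 for Icos. Regions are numbered for each gene from low to high coordinate.

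Follicular helper T cells are CD4+ T cells that enter B cell follicles and help germinal centre B cells to mature. The transcription factor BCL6 directs the programme, the chemokine receptor CXCR5 guides the cells into the follicle, and the cytokine IL-21 and the surface ligand CD40L act on B cells. ICOS is a costimulatory receptor, PD-1 (Pdcd1) an inhibitory receptor, IL-21R the receptor of IL-21, and SLAMF1 an adhesion and signalling receptor of lymphocytes. Several of these genes also serve other lymphocytes, B cells included.

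No library was labelled as follicular helper T cells. All donors were Gata3-YFP/YFP mice in which the airways were inflamed, and the animals' age and strain are not given in the sources used here. Cells labelled naive T, T helper 2 (Th2) and group 2 innate lymphoid (ILC2) were sorted by antibodies and YFP, with 2 libraries each, replicate 1 being bronchoalveolar lavage and replicate 2 mediastinal lymph node. CD4+ lymphocytes of spleen and of thymus gave 1 library each, so these have no replicate. Th2 cells are CD4+ T cells that make type 2 cytokines, and ILC2s are innate lymphocytes without a T cell receptor that make the same cytokines. The labels state no gate for naive T cells. Values are normalized tag counts, tags per 10000000 sequenced. Pairs of values give lavage first and lymph node second. In such sorted populations, fewer cells that carry a mark and less mark per cell cannot be told apart. Because the libraries of a type differ in site and the labels do not tie them to animals, p-values measure only the spread between these samples.

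Sequenced tags ranged from 11870820 to 24945548 per library, peaks from 14723 to 21985, and the share of tags inside peaks from 28.71% to 53.68%, lowest in the Th2 libraries. The lavage naive T library stood apart from its lymph node partner. Its peak regions shared 0.647 of their union with that partner, but 0.8 and 0.771 with the Th2 libraries, while lymph node naive T and spleen shared 0.892. Summed tags of 7 naive T cell markers were 8009.2 and 23671.4 in the naive T pair, 5360.9 to 8323.6 in Th2 cells and ILC2s, and 17049.3 in spleen. Summed tags of 7 type 2 markers were 3832.2 and 2737.4 in the naive T pair, 7715.4 and 6790.5 in Th2 cells. ILC2s held 13157.9 and 11432.2. Of these markers, Il1rl1, the IL-33 receptor of type 2 lymphocytes, held 282.1 tags in lavage naive T and no peak in lymph node naive T. Th2 cells held 2154.4 and 1552.5 tags at Il1rl1. Gata3 went the other way, with 1683.1 tags in lavage and 2107.7 in lymph node naive T. T cell markers were marked in every T cell library (8 of 9 with a peak, 10857.9 to 18644.6 tags), whereas ILC2s had 6 of 9 with 1299.2 and 1512.0 tags and no peak at Cd4. ILC2 markers summed to 16711.9 and 18223.8 tags in ILC2s and 2139.1 to 5017.6 elsewhere. Of 3 regulatory T cell markers, Foxp3, Ikzf2 and Ctla4, the factor gene Foxp3 was called in both naive T libraries (203.5 and 144.6 tags) and spleen (102.1). The Th2, ILC2 and thymus libraries lacked a Foxp3 peak. The 3 markers together were ordered differently, with sums of 9520.8 for lavage naive T and 2593.5 for lymph node naive T. Th2 libraries held 6109.2 and 6912.6 tags, ILC2 libraries 5250.3 and 5255.6, spleen 3235.7 and thymus 2411.6. How these markers bear on the member signals was not tested. B cell markers, which bear on Cxcr5, Bcl6, Il21r and Slamf1, gave 117.8 to 839.5 tags, with 2 to 5 of 9 genes peaked, and Cd79a, Ms4a1 and Cd22 had no peak in any library.

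The region upstream of a start site is shown for the genes whose start was marked in some cell types and not in others, and for Bcl6, whose outer and inner starts differed. These are the 250 bases before the start in RefSeq (GRCm38.p6), read 5′ to 3′ along the gene. Capitals mark matches to STAT (TTCNNNGAA) or TCF/LEF (CTTTGA) motifs on either strand. No promoter sequence of Cxcr5, Icos or Cd40lg was used here.
Bcl6 outer start, chr16:23988853-23989102, minus strand: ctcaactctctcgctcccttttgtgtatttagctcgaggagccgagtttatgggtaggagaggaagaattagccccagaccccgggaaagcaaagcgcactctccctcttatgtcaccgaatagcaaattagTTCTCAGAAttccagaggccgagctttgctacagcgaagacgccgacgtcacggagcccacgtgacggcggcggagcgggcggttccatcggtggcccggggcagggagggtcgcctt
Bcl6 inner start, chr16:23981284-23981533, minus strand: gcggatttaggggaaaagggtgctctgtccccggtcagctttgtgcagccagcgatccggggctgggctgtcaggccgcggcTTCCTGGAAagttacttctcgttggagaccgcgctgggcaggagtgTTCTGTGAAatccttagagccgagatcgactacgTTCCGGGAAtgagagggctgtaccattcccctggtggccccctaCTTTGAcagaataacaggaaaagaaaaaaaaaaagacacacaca
Il21, chr3:37232637-37232886, minus strand: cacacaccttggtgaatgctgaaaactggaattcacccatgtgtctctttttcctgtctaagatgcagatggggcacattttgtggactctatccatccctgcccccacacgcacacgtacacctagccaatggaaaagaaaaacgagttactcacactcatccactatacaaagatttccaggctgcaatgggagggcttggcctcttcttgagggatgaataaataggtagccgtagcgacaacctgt
Il21r, chr7:125603179-125603428, plus strand: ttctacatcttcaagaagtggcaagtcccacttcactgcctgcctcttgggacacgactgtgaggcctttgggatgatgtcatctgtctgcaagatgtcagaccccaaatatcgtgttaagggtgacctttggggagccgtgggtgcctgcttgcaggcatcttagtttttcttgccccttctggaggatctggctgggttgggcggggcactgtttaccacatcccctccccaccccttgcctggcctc
Slamf1, chr1:171766882-171767131, plus strand: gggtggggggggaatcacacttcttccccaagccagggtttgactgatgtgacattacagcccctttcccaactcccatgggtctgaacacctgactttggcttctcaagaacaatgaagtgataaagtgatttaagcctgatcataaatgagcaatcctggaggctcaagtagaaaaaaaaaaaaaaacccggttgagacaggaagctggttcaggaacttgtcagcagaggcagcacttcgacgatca

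The inner Bcl6 sequence held 3 STAT letters, at positions -168, -122 and -88 from the start, and a TCF/LEF match at -44. Its outer sequence held 1 STAT match at -118. The STAT letters occurred in 7.02% and the TCF/LEF letters in 13.8% of 32851 RefSeq promoters of that length. The letters of the GATA factor motif, AGATAA (9.99% of promoters), of the AP-1 motif, TGANTCA (6.75%), and of the E-box, CAGCTG (13.0%), had no match in the 6 member promoters searched, Pdcd1 included. A match is a run of letters and not a bound site.

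Over the 8 genes together, the fewest regions were called in ILC2s. Of the 44 regions, 35 and 34 were called in naive T cells, 23 and 27 in Th2 cells, 14 and 14 in ILC2s, 29 in spleen and 16 in thymus. As shares, the ILC2 libraries held 31.8% of member regions each, against 68.6% and 68.9% of all regions of the series. Naive T cells held 79.5% and 77.3% of member regions against 53.8% and 70.2% of all regions. The thymus held 36.4% against 66.2%. Regions called in all 8 libraries made up 18.2% of member regions and 36.7% of all regions, and 38.6% of member regions overlapped their gene against 72.2% of all regions.

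**Figure D1:**
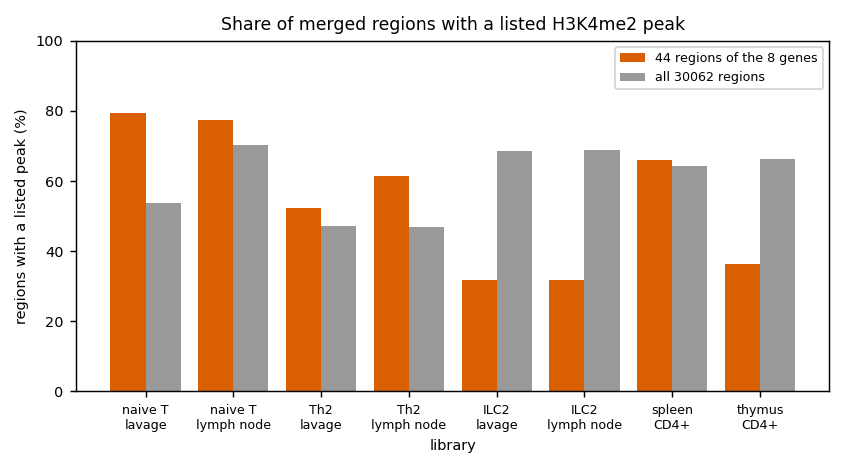
Share of regions called (y axis, percent) in each of the 8 libraries (x axis), for the 44 member regions and for all 30062 regions of the series. Member shares run from 31.8% in both ILC2 libraries to 79.5% in lavage naive T, and both ILC2 libraries lie below their share of all regions.

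Which regions belonged to one cell type was read from calls in both libraries of a type and neither of the other, with no p-value. Of 43 member regions called in naive T cells or ILC2s, 13 were naive T only (background, 2.93% of all such regions) and 0 ILC2 only (background 11.7%). The 13 were 4 of Il21r, 3 of Cxcr5, 3 of Slamf1, 2 of Cd40lg and 1 of Pdcd1. Of 27 regions of Th2 cells or ILC2s, 8 were Th2 only (background 1.83%) and 0 ILC2 only (background 23.7%). Those 8 were 3 of Slamf1, 2 of Il21, 2 of Cd40lg and 1 of Icos. Between Th2 and naive T cells, 7 of 44 were naive T only (background 6.77%) and 1 was Th2 only (background 1.3%), Slamf1 region 5. Without the lavage naive T library, 14 of 41 regions (34.1%) were naive T only against Th2 cells, level with 33.5% of all regions, and 6 were Th2 only (14.6% against 4.32%). Against ILC2s, 20 of 35 were then naive T only (57.1% against 18.2% of all regions). Without the lymph node naive T library 21 of 36 were naive T only against ILC2s (58.3% against 5.79%), and 2 were Th2 only against naive T cells (5.41% against 2.54%). With either naive T library left out, 1 region was ILC2 only against the other, where 15.1% and 21.5% of all regions were.

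**Figure D2:**
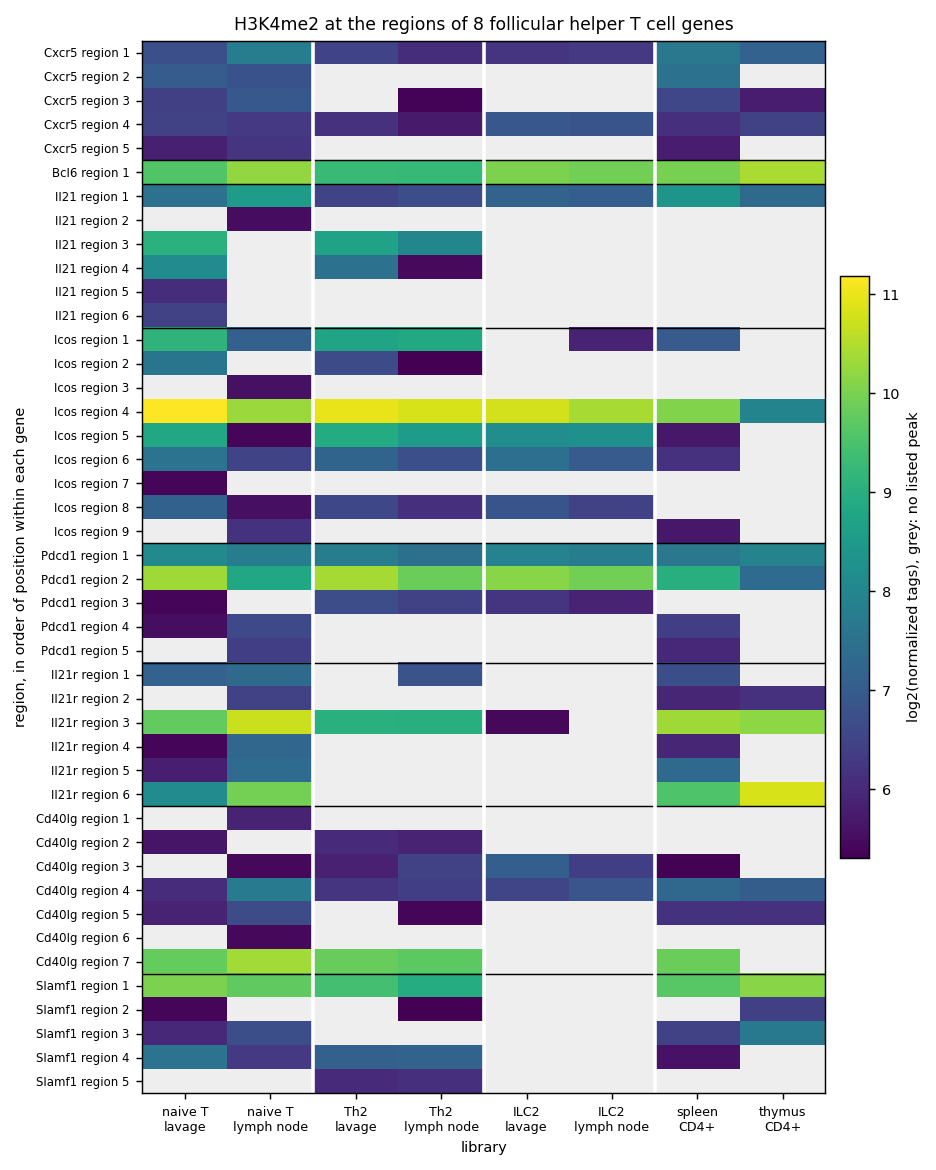
Normalized tags (colour, log2) of each of the 44 member regions (rows, grouped by gene) in each of the 8 libraries (columns), with uncalled regions in grey. Slamf1 is grey in both ILC2 columns and Il21r nearly so, while the single Bcl6 region is filled in all 8.

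Summed over the peaks of a gene, the signal of 4 members was lower in ILC2s than in naive T cells (limma, adjusted p under 0.05 over 11833 genes): Cxcr5, Il21r, Cd40lg and Slamf1. Over all genes tested 2.69% were lower and 8.16% higher by this rule, and 0 members were higher. The members' median log2 difference was -1.55, against 0.00 over all genes. Against Th2 cells 3 members were lower in ILC2s, Il21r, Cd40lg and Slamf1 (background 1.99%), and 0 were higher (background 8.63%), with medians of -1.54 and 0.08. Between Th2 and naive T cells 1 member, Cxcr5, was lower in Th2 (background 1.83%) and 0 were higher (background 0.744%), with medians of 0.12 and -0.05. All 8 members passed the filter, a peak in both libraries of at least 1 of these cell types. At an unadjusted limma p under 0.05, in either direction, 5, 4 and 2 of the 8 passed in these 3 comparisons. Of all 11833 genes, 2794, 3368 and 2314 did so. The ILC2 and Th2 comparisons share libraries, as do the others, so their results are not separate evidence.

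Leaving out a library moved the background and some of these counts, not always together. A type left with 1 library is assumed there to vary like the other groups, which alone supply the spread. Without the lymph node ILC2 library 0 members were lower than in Th2 cells, with limma adjusted p of 0.052 for Cd40lg, 0.052 for Slamf1 and 0.067 for Il21r. With either naive T library left out that count was 5, with Icos and Il21 added, while 13.2% (without lavage) and 7.82% (without lymph node) of all genes were lower. Without the lavage naive T library 2 members, Icos and Pdcd1, passed as higher in Th2 than in the remaining naive T library, as did 12.6% of all genes. The lower signal of Cxcr5 in Th2 cells was not called with any 1 of the Th2 or ILC2 libraries left out, with limma adjusted p of 0.13 to 0.19. Against naive T cells, 3 to 5 members were lower in ILC2s in all these refits, and 0 were higher in each. All genes lower there made up 14.1% without lavage naive T, 4.93% without lymph node naive T and 0.755% to 1.57% in the others.

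**Figure D3:**
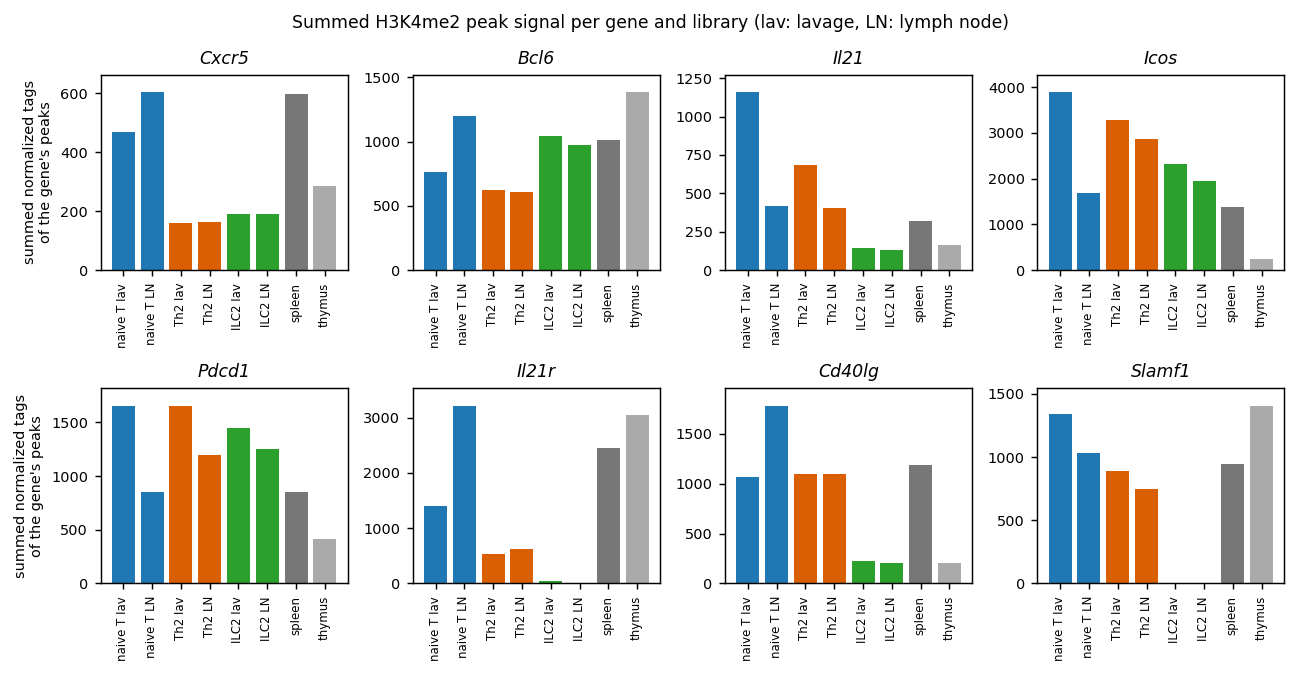
Summed normalized tags per gene (y axis) in each library, 1 panel per gene, with 1 bar per library (lav, lavage; LN, lymph node). In Il21, Il21r, Cd40lg and Slamf1 both ILC2 bars lie below every naive T and Th2 bar, and in Bcl6, Icos and Pdcd1 they lie within the range of the naive T pair.

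**Figure D4:**
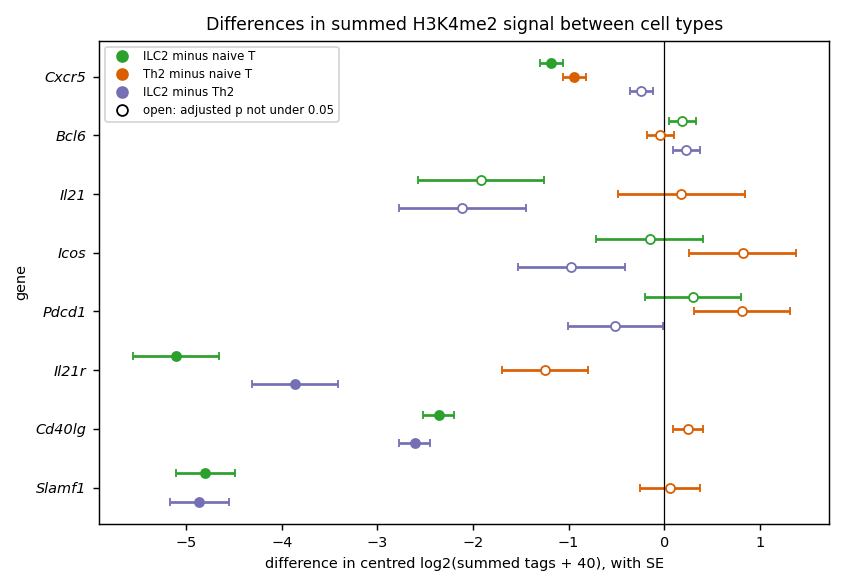
Difference between cell types in centred log2(summed tags + 40) (x axis) for each gene (y axis), with bars for 1 standard error and filled points for an adjusted p under 0.05. Il21r and Slamf1 lie furthest to the left in both ILC2 contrasts, and the fitted size of these depends on the pseudocount of 40.

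Bcl6, the transcription factor at the head of the programme, had 1 region, chr16:23980328-23992716, which spans both of its listed starts. It held 766.1 and 1200.9 tags in naive T cells, 625.9 and 609.9 in Th2 cells, 1044.3 and 975.5 in ILC2s, 1013.0 in spleen and 1383.7 in thymus. ILC2s lay inside the range of the naive T pair, and both Th2 libraries lay below every other library before centring. After centring, which raises both Th2 libraries, Th2 minus naive T cells was log2 -0.04 ± 0.14 (SE, limma adjusted p = 0.88). The log2 difference of ILC2s from naive T cells was 0.19 ± 0.14 (SE, n = 2 and 2, limma adjusted p = 0.47), and from Th2 cells 0.23 ± 0.14 (adjusted p = 0.33). Its signal per covered kb was 63.5 and 63.9 in Th2 cells and between 82.3 and 113.6 in the other 6 libraries. The peak reached the inner start in lymph node naive T, both ILC2 libraries, spleen and thymus, and ended short of it in lavage naive T and both Th2 libraries. The outer start lay under a peak in all 8. The inner sequence with the 3 STAT matches printed above is thus the one covered in 5 of 8 libraries. This split rests on where the edge of 1 continuous peak fell. In lavage Th2 cells that edge lay at 23981537, just beyond the end of the printed sequence at 23981533, and in spleen at 23981174.

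Cxcr5, the receptor for the follicular chemokine CXCL13, had 5 regions with low signal, none above 217.8 tags in any library. Its summed signal was 468.5 and 603.3 in naive T cells, 161.5 and 161.8 in Th2 cells, 191.7 and 191.9 in ILC2s, 598.6 in spleen and 285.3 in thymus. Naive T cells and spleen were high, Th2 cells and ILC2s low, and these did not overlap. The log2 difference from naive T cells was -1.18 ± 0.12 in ILC2s (SE, limma adjusted p = 0.0084) and -0.94 ± 0.12 in Th2 cells (adjusted p = 0.039). The Th2 difference was not called with the site as a block in the fit (limma adjusted p = 0.12). With either ILC2 library left out the first was not called, with adjusted p of 0.086 and 0.094, and the second was not called with no filter (0.06) or with equal numbers of peaks per library (0.12). The covered length fell from 10560 and 11313 bp in naive T cells to between 3532 and 3615 bp in Th2 cells and ILC2s, while tags per covered kb stayed between 44.4 and 53.8 in these 6 libraries. Fewer regions entered the lower sums, as did lower tags in region 1, which all 8 libraries shared. In region 4, the other shared one, both Th2 libraries lay below the naive T pair and both ILC2 libraries above it. These orders are before centring. After centring, Th2 minus naive T cells was log2 0.17 ± 0.27 in region 4 (limma adjusted p = 0.71). In region 1 it was -0.36 ± 0.26 (limma adjusted p = 0.43).

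Of the Cxcr5 regions, region 2 over the high-coordinate end of the gene, chr9:44523400-44529144, held 130.4 and 110.9 tags in naive T cells and 179.5 in spleen, with no peak in the other 5 libraries. Region 5, chr9:44562155-44563687 and 35711 bp from the gene, had the same calls, with 56.4, 73.9 and 55.0 tags. Region 3, chr9:44532312-44534385, held 85.3 and 122.3 tags in naive T cells, 93.7 in spleen and 54.1 in thymus. It was also listed in lymph node Th2 cells at 41.3 tags, close to the calling minimum, and in no ILC2 library. Regions 1 and 4 were called in all 8 libraries. The tallest, region 1 inside the gene at chr9:44514200-44517888, held 107.4 and 217.8 tags in naive T cells and 67.4 to 90.4 in Th2 cells and ILC2s. Region 4, chr9:44537065-44539119, was highest in ILC2s, with 118.7 and 113.9 tags against 53.1 to 89.0 in the 4 naive T and Th2 libraries. Its height difference between ILC2s and naive T cells did not pass (log2 0.66 ± 0.27, limma adjusted p = 0.27).

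Il21, the cytokine that follicular helper T cells supply to B cells, had 6 regions with an uneven spread among the T cell libraries. Its sums were 1157.6 and 418.0 in naive T cells, 686.3 and 403.5 in Th2 cells, 144.7 and 133.6 in ILC2s, 323.0 in spleen and 161.3 in thymus. The ILC2 libraries lay below every other library, and the naive T and Th2 pairs overlapped. Neither ILC2 contrast passed, at log2 -1.92 ± 0.66 from naive T cells (limma adjusted p = 0.17) and -2.11 ± 0.66 from Th2 cells (adjusted p = 0.13). With either naive T library left out the latter passed, with adjusted p of 0.021 without lavage and 0.018 without lymph node. With lavage as the only naive T library the former was log2 -2.85, and with lymph node as the only one it was -1.0. Covered lengths were 17340 and 4070 bp in naive T cells, 11840 and 7987 bp in Th2 cells, and 2114 and 1759 bp in ILC2s, with 66.8, 102.7, 58.0, 50.5, 68.4 and 76.0 tags per covered kb in that order.

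The Il21 start itself, inside region 3 at chr3:37227494-37234431, was marked in 3 libraries: lavage naive T at 533.7 tags and Th2 cells at 413.9 and 256.1. Lymph node naive T, both ILC2 libraries, spleen and thymus had no peak there. Region 4, chr3:37256869-37260938 and 24233 bp from the gene, had the same calls with 284.2, 180.8 and 43.8 tags. Regions 5 and 6, beyond it, were called in lavage naive T only, at 67.7 and 86.9 tags. The lavage naive T library thus had the Il21 peaks of Th2 cells and the lymph node one did not. The lavage library also held fewer naive T marker tags than the lymph node one (8009.2 and 23671.4). It held more type 2 marker tags (3832.2 and 2737.4), though Gata3 went the other way. The part of these markers in the Il21 difference was not tested. Region 1, chr3:37203454-37206601, between Il21 and Il2, was called in all 8 libraries, lowest in Th2 cells (91.6 and 103.6) and highest in lymph node naive T (372.5) and spleen (323.0).

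Il21r, the receptor for this cytokine, had 6 regions, nearly all without a peak in ILC2s. Summed signal was 1394.7 and 3218.7 in naive T cells, 526.1 and 627.5 in Th2 cells, 42.9 and 0 in ILC2s, 2445.5 in spleen and 3053.0 in thymus. The groups were ordered thymus, spleen, naive T, Th2, ILC2, and among neighbours only spleen and naive T overlapped. ILC2s were lower than naive T cells (log2 -5.11 ± 0.45, limma adjusted p = 0.0056) and than Th2 cells (-3.86 ± 0.45, adjusted p = 0.013). The second was not called with either Th2 library or lymph node ILC2s left out, with adjusted p of 0.067 to 0.095. The size of both differences depends on the pseudocount, since lymph node ILC2s had no peak. Th2 cells did not differ from naive T cells by this test (log2 -1.25 ± 0.45, adjusted p = 0.24). Covered lengths were 20711 and 30262 bp in naive T cells, 8429 and 10334 bp in Th2 cells and 1000 bp in lavage ILC2s, at 67.3, 106.4, 62.4, 60.7 and 42.9 tags per kb.

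Region 3 of Il21r, at the start of the gene (chr7:125600194-125610629), held 871.0 and 1663.2 tags in naive T cells, 526.1 and 515.5 in Th2 cells, 1306.2 in spleen and 1159.3 in thymus. In ILC2s it was listed in lavage at 42.9 tags, near the calling minimum, and that peak did not reach the start printed above. Region 6, at the far end of the gene (chr7:125629508-125639452) and 1502 bp from Gtf3c1, held 284.2 and 992.1 tags in naive T cells, 751.4 in spleen and 1823.3 in thymus, with no peak in Th2 cells or ILC2s. In thymus it exceeded region 3. Regions 4 and 5, inside the gene at chr7:125613608-125617718 and chr7:125619790-125623089, were called in both naive T libraries and spleen alone, at 42.2 to 163.3 tags. Region 1, chr7:125592589-125595143, held 141.3 and 162.1 tags in naive T cells, 112.0 in lymph node Th2 cells and 105.8 in spleen.

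Icos, the costimulatory receptor needed to keep follicular helper T cells, was marked in ILC2s as in T cells, and least in thymus. Its sums were 3889.8 and 1697.0 in naive T cells, 3280.8 and 2876.8 in Th2 cells, 2321.4 and 1946.5 in ILC2s, 1381.2 in spleen and 248.0 in thymus. Both ILC2 libraries lay inside the wide naive T range and below both Th2 libraries. ILC2s did not differ from Th2 cells by the test (log2 -0.97 ± 0.56, limma adjusted p = 0.32), but did when either naive T library was left out (-0.97 ± 0.16, adjusted p = 0.026). Th2 minus naive T cells was log2 0.82 ± 0.56 (limma adjusted p = 0.44), and 1.64 with lymph node as the only naive T library. Covered lengths were 3893 bp in thymus, 19661 bp in spleen, 22032 bp in lymph node naive T and up to 45225 bp in lavage naive T. Tags per covered kb were 70.3 to 86.0 in all libraries but thymus.

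Most Icos signal came from region 4 inside the gene, chr1:60973514-60993600, the longest member region at 20086 bp. It held 2319.6 and 1259.1 tags in naive T cells, 2030.3 and 1820.4 in Th2 cells, 1743.4 and 1365.7 in ILC2s, 1080.5 in spleen and 248.0 in thymus. In lymph node naive T cells and in spleen it was split into 3 peaks, and in thymus into 2. Region 5, chr1:61021817-61032970, was high in lavage naive T, Th2 cells and ILC2s (290.2 to 482.5 tags) and low in lymph node naive T (42.7) and spleen (51.3), with no peak in thymus. Region 1, chr1:60935177-60943179, lies between Icos and Ctla4, at 17594 bp from the former and 19345 bp from the latter. Naive T cells held 555.9 and 138.1 tags there, Th2 cells 425.1 and 470.1, and spleen 126.8, while lavage ILC2s had no peak and lymph node ILC2s 59.6 tags. Region 2, chr1:60952100-60955334, was called in both Th2 libraries (100.4 and 39.6 tags) and lavage naive T (192.7), and in neither ILC2 library.

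Cd40lg, which encodes the CD40 ligand that T cells show to B cells, separated the T cell groups from ILC2s and thymus. Its sums were 1065.8 and 1783.6 in naive T cells, 1100.8 and 1098.5 in Th2 cells, 228.9 and 200.1 in ILC2s, 1192.5 in spleen and 203.3 in thymus. ILC2s and thymus overlapped each other and lay far below the rest. The log2 difference of ILC2s was -2.36 ± 0.16 from naive T cells (limma adjusted p = 0.003) and -2.61 ± 0.16 from Th2 cells (adjusted p = 0.0035). Covered length was 17447 to 22476 bp in naive T and Th2 cells against 4352 and 4404 bp in ILC2s, at 57.6 to 79.4 and 52.6 and 45.4 tags per kb.

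Cd40lg region 7, over the gene at chrX:57210055-57223996, held most of the T cell signal: 891.1 and 1322.4 tags for naive T, 905.1 and 826.4 for Th2 and 923.9 for spleen. Neither ILC2 library nor thymus had a peak there. What remained in ILC2s were 2 distal regions, of which region 4 was called in all 8 libraries. Region 4, chrX:57186513-57190122, held 92.2 and 115.6 tags in ILC2s, within the 66.9 to 214.9 of naive T cells. Region 3, chrX:57180250-57183936, held 136.7 and 84.5 tags in ILC2s, 57.3 and 86.8 in Th2 cells, 43.1 in lymph node naive T and no peak in lavage naive T. Its peaks in lymph node naive T and spleen ended at 57181488 and 57181476. The peak of lymph node ILC2s began at 57181640 and overlapped neither, so merging joined them. Region 5, chrX:57195413-57197338, was called in both naive T libraries (58.1 and 101.6 tags) and not in ILC2s, and region 2, chrX:57176837-57178245, in both Th2 libraries (65.5 and 59.0) and not in ILC2s.

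**Figure D5:**
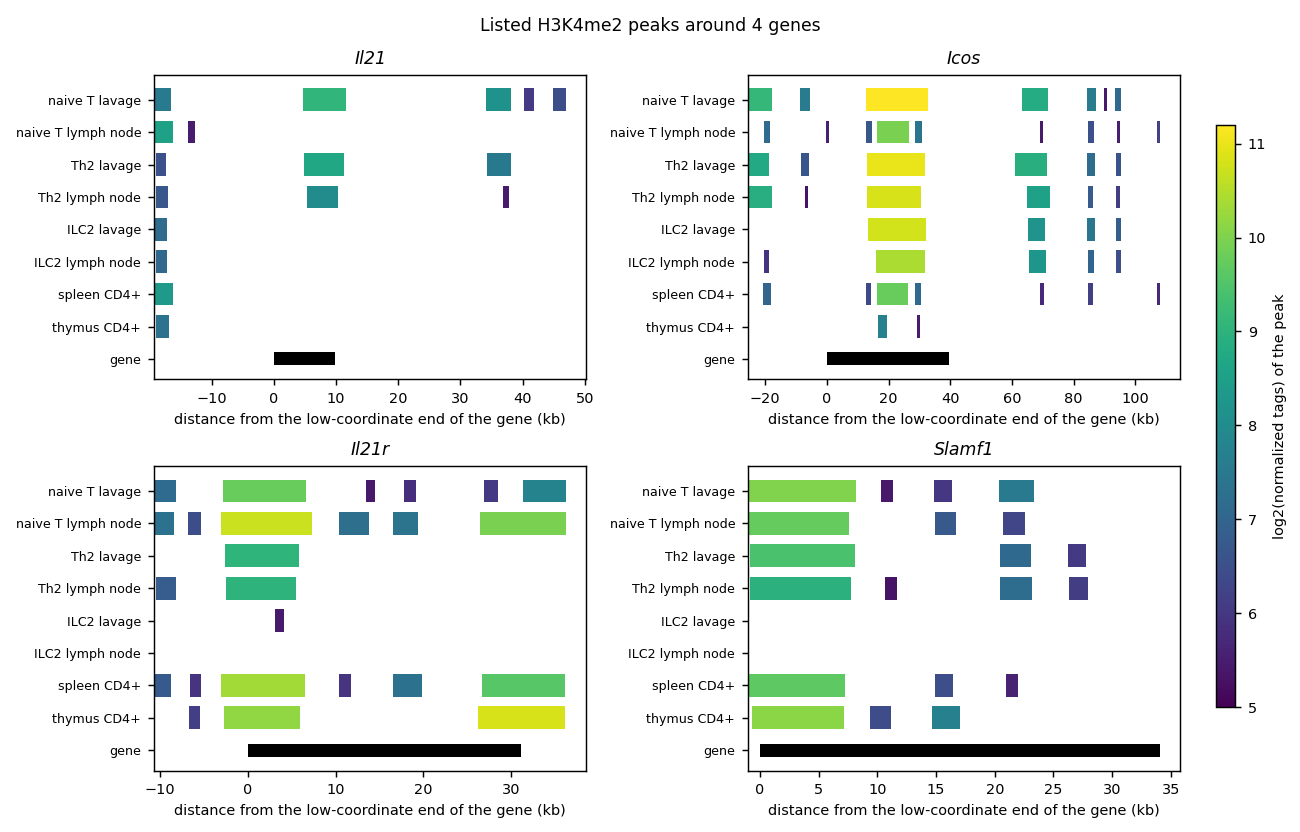
Peaks of each library (rows) around Il21, Icos, Il21r and Slamf1, coloured by log2 normalized tags and drawn by distance from the low-coordinate end of the gene (x axis, kb), with the gene as a bar. Both ILC2 rows have no peak at Slamf1 and a long one inside Icos, and Il21 itself is covered in lavage naive T and both Th2 rows alone.

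Pdcd1, the gene for PD-1, was marked in all cell types. Sums were 1650.5 and 847.9 in naive T cells, 1655.6 and 1192.9 in Th2 cells, 1446.8 and 1247.9 in ILC2s, 853.1 in spleen and 410.2 in thymus. Naive T cells, Th2 cells and ILC2s overlapped, and thymus was lowest. Log2 differences were 0.30 ± 0.50 for ILC2s from naive T cells (limma adjusted p = 0.77), 0.81 ± 0.50 for Th2 from naive T cells (0.41) and -0.51 ± 0.50 for ILC2s from Th2 cells (0.54). With lymph node as the only naive T library the Th2 difference was 1.5. Covered length ran from 4859 bp in thymus to 20913 bp in lavage naive T, at 66.6 to 96.8 tags per kb.

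The start of Pdcd1 lay in region 2, chr1:94041785-94057436, where naive T cells held 1289.8 and 444.9 tags. There were 1332.1 and 927.5 in Th2 cells, 1134.1 and 968.0 in ILC2s, 508.6 in spleen and 164.4 in thymus. Lymph node naive T was less than any Th2 or ILC2 library and close to spleen. Region 3, chr1:94073805-94076065, had no peak in lymph node naive T, spleen or thymus. It held 42.6 tags in lavage naive T and 58.3 to 104.1 in Th2 cells and ILC2s. Region 4, chr1:94091193-94092793, did the reverse, with 46.4 and 97.1 tags in naive T cells, 84.4 in spleen and none elsewhere. Region 1, chr1:94033880-94037490, was even across all 8 libraries, at 176.9 to 271.7 tags.

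Slamf1, a receptor that binds itself on neighbouring lymphocytes, had 5 regions, all overlapping the gene and none called in ILC2s. Sums were 1338.3 and 1036.0 in naive T cells, 887.0 and 748.8 in Th2 cells, 945.4 in spleen and 1407.7 in thymus, with no listed peak in either ILC2 library. No fold is given against a group without a peak. Both ILC2 values in the fit were set by the pseudocount, so they added almost no spread and the p-values depend on it. The limma adjusted p was 0.0027 against naive T cells and 0.0038 against Th2 cells, with all 4 T cell libraries above both ILC2 libraries. Th2 and naive T cells did not differ by the test (log2 0.06 ± 0.31, adjusted p = 0.92), and their pairs did not overlap before centring. Signal per covered kb was 91.3 and 85.5 in naive T cells, 67.8 and 53.7 in Th2 cells and 116.5 in thymus, over 12086 to 14658 bp.

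Region 1 of Slamf1, over the start at chr1:171766091-171775318, held 1047.4 and 853.2 tags in naive T cells, 685.1 and 495.3 in Th2 cells, 807.9 in spleen and 1117.8 in thymus. Further inside the gene the T cell types differed. Region 3, chr1:171781771-171784176, was called in naive T cells (62.7 and 104.8 tags), spleen (89.0) and thymus (204.3) and not in Th2 cells. Region 4, chr1:171787500-171790471, held 186.0 and 78.0 tags in naive T cells, 137.1 and 145.7 in Th2 cells and 48.5 in spleen, and no peak in thymus. Region 5, chr1:171793382-171795031, was called in the Th2 libraries alone, at 64.8 and 68.2 tags.

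Where a region was called in all 6 naive T, Th2 and ILC2 libraries, its height could be compared. This held for 11 of 44 member regions, 4 of Icos, 2 of Pdcd1, 2 of Cxcr5 and 1 each of Bcl6, Il21 and Cd40lg. None of the 11 passed in any contrast by limma with adjustment over 11644 regions. At an unadjusted p under 0.05 there were 2 for ILC2s against naive T cells, 1 for Th2 against naive T cells and 0 for ILC2s against Th2 cells. Of all 11644 regions, 2224, 2212 and 2533 were under that unadjusted p. The background shares called higher and lower after adjustment were 2.61% and 1.62%, 0.112% and 0.0258%, and 2.1% and 1.28% in that order. Median log2 differences of the 11 regions were 0.25, 0.30 and -0.19, against -0.02, 0.01 and -0.01 over all regions. The regions below an unadjusted p of 0.05 were Il21 region 1, lower in both ILC2s (log2 -0.74 ± 0.22, limma adjusted p = 0.15) and Th2 cells (-0.82 ± 0.22, adjusted p = 0.18) than in naive T cells, and Cxcr5 region 1 in ILC2s (-0.84 ± 0.26, adjusted p = 0.16). These were chosen after their values were seen.

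A list of 37 other genes of the follicular helper pathway was read the same way, of which 34 were tested. Ascl2, Gpr183 and Tnfrsf4 did not pass the filter. In ILC2s 7 of 34 were lower and 1 was higher than in naive T cells (limma adjusted p under 0.05, backgrounds 2.69% and 8.16%), and 8 were lower and 0 higher than in Th2 cells (backgrounds 1.99% and 8.63%). Between Th2 and naive T cells 0 passed in either direction, with 5 of 34 at an unadjusted p under 0.05, as were 2314 of all 11833 genes. Median log2 differences of the list were -0.25, -0.36 and 0.14, in that order. When 1 library was left out, the lower counts of 7 and 8 rose and fell along with those of all genes. Both were lowest without an ILC2 or Th2 library and highest without lavage naive T. Without lavage naive T, 10 of 36 list genes were higher in Th2 than in naive T cells (27.8%, against 12.6% of all genes) and 7 lower (19.4%, near the 20.6% of all genes). In ILC2s 9 then exceeded naive T (25%, against 14.7% of all genes).

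Sh2d1a, whose product SAP is the adaptor of the SLAM receptors, had the smallest adjusted p of the list. Naive T cells held 742.7 and 909.2 tags and Th2 cells 498.1 and 516.4, with no peak in either ILC2 library (limma adjusted p = 0.0018 against naive T cells and 0.0025 against Th2 cells). Both ILC2 values in this fit were set by the pseudocount, so they added almost no spread and the p-values depend on it. Sh2d1a thus shared with Slamf1 the absence of any listed peak in ILC2s, as did Pou2af1 of the list. Not all SLAM receptors followed this. Cd84 held 843.4 and 1111.6 tags in naive T cells, 584.7 and 655.4 in Th2 cells, and 812.6 and 805.5 in ILC2s. Ly9 held 290.9 and 411.5, 285.5 and 310.0, and 251.3 and 268.5 tags in that order. It was lower in ILC2s than in Th2 cells (limma adjusted p = 0.041) but not than in naive T cells (0.3). Slamf6, another SLAM receptor, held 1000.6 and 1647.8 tags in naive T cells, 619.1 and 793.5 in Th2 cells and 49.7 and 127.1 in ILC2s. Cd28, the main costimulatory receptor of T cells, held 3463.0 and 3086.4, 2999.6 and 3263.5, and 368.4 and 289.5 tags in the same order. For Slamf6 and Cd28 both ILC2 values lay below all T cell values, with log2 differences from naive T cells of -3.31 ± 0.32 (limma adjusted p = 0.0072) and -3.05 ± 0.26 (adjusted p = 0.0054). Il6st, the signalling subunit of the IL-6 receptor, was lower in ILC2s than in naive T (log2 -1.70 ± 0.16, limma adjusted p = 0.0068), but not with either ILC2 library left out. Its partner Il6ra was lower than in Th2 cells (log2 -2.42 ± 0.35, limma adjusted p = 0.022), but was not called without centring, with equal numbers of peaks, or with any 1 of the Th2 or ILC2 libraries left out. Tox, a transcription factor, was the 1 gene higher in ILC2s, at 4050.7 and 4215.9 tags against 1608.7 and 2200.2 in naive T (log2 1.24 ± 0.24, limma adjusted p = 0.04), but was not called with any 1 of the ILC2 or naive T libraries left out.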

How the data were processed

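H3K4me2 ChIP-seq peak lists of 8 libraries were used; 2 IgG samples were not analysed here. Bowtie, HOMER and the mm10 build are named, without versions, in the submitters' processing notes. Per the file headers, findPeaks called each library separately (initial size 1000 bp, minimum distance 2500 bp, false discovery rate 0.001, 4-fold over IgG). The IgG background came from thymus for every list but that of spleen. The signal of a peak is the authors' normalized tag count per 10000000 tags, and the fold over IgG is a ratio from the authors' peak finder. In the authors' deposited table the fold of member peaks ran from 5.46 to 220.13, with a median of 19.57. The tag minimum was 39.9 to 40.4 tags, and each list also holds 215 to 533 peaks slightly under it, the lowest at 34.5. An unlisted region failed the authors' criteria and is not shown to lack the mark. Of 199 member peaks, 61 were under 80 tags, where counting error weighs most.

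Peaks were assigned to RefSeq genes of GRCm38.p6, the release behind mm10, and merged. Every member peak kept its gene after merging. Sums per gene were compared as log2(sum + 40), centred on the median of 8755 genes with a peak in all 6 libraries. Centring offsets were 0.46 for lymph node naive T, -0.36 and -0.31 for Th2 and between 0.00 and 0.13 for the rest. Regions called in all 6 libraries were compared by log2 tags, also centred. Both used limma 3.58.1 in R 4.3.3, 3 group means in 1 fit, with Benjamini-Hochberg adjustment over all genes or regions and a threshold of 0.05. The scripts were tested on simulated data. Spleen and thymus stayed outside the fits.

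The members and lists were chosen with earlier results of these data known. Named were all members, their tallest regions, regions called in both libraries of one type and neither of another, and the 4 list genes with the smallest adjusted p per contrast and direction. Alternatives changed the number of peaks, tag minimum, merging, gene distance, pseudocount, centring, filter and site block, and left out each library.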

Additional observations from a re-analysis of the deposited data

Results flagged for a closer look

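The direction of 5 differences was opposite at the 2 sites. Each rests on 1 library per cell type and site, and the difference between sites was not tested. For Th2 minus naive T cells, in centred log2(sum + 40), Bcl6 was 0.08 in lavage and -0.16 in lymph node. Il21 was -0.36 in lavage and 0.73 in lymph node, and Slamf1 -0.21 and 0.33. For ILC2 minus naive T cells, Icos was -0.82 in lavage and 0.53 in lymph node, and Pdcd1 -0.27 and 0.87. Each of these compares with the naive T library of its own site, and those libraries differ in naive T markers (8009.2 and 23671.4 tags). The part of that difference in these results was not tested.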

How the results depend on the processing

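Counts of member regions called in one type only moved under few settings. With a minimum of 80 tags, 1 region was ILC2 only against naive T cells (9.45% of all regions were) and 1 against Th2 cells (23.1%), and 3 were naive T only against Th2 cells (9.09%, near the 9.41% of all regions). With equal numbers of peaks, 4 were Th2 only against naive T cells (11.8%, against 3.5%) and 2 naive T only against Th2 cells (5.88%, against 2.86%). Leaving out 1 library gave 0 to 1 ILC2 only and 13 to 21 naive T only in that pair. All regions so called made up 11.7% to 21.5% and 2.93% to 18.2%. Between Th2 and naive T cells, 1 to 6 were Th2 only and 7 to 14 naive T only. There the shares of all regions were 1.3% to 4.32% and 6.77% to 33.5%. Between ILC2s and Th2 cells, 0 were ILC2 only and 8 to 12 Th2 only, with shares of 23.7% to 30.3% and 1.83% to 3.2%. In summed signal, 0 members were lower in Th2 than in naive T cells with a replicate block, with no filter and with equal numbers of peaks, since Cxcr5 then had a limma adjusted p of 0.12, 0.06 and 0.12. Leaving out 1 library moved the counts of all genes and some counts of members, as described with the summed signal above. In region heights, setting uncalled libraries to 40 tags gave 8 lower in ILC2s than in naive T cells (4.8% of all regions were) and 8 lower than in Th2 cells (4.06%). No centring gave 1 lower in Th2 than in naive T cells, Il21 region 1 (6.35%). Heights with 1 library left out gave 0 to 4 higher and 0 to 2 lower for ILC2s against naive T cells. They gave 0 to 5 and 0 to 1 for Th2 against naive T cells, and 0 and 0 to 2 for ILC2s against Th2 cells. Against naive T cells, every count above 0 came without lavage naive T. There 11.4% and 5.47% of all regions were higher and lower in ILC2s, and 13.9% and 9.56% in Th2 cells. The 2 lower in ILC2s than in Th2 cells came without lymph node naive T, where 6.34% of all regions were.

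The site, as a replicate block, changed no call of a member but Cxcr5 in Th2 against naive T cells (log2 -0.94, limma adjusted p = 0.12). On the list of 37, of which 34 were tested, it left 0 higher and 6 lower in ILC2s than in naive T cells (backgrounds 5.94% and 1.82%). Those lower than in Th2 cells were 4, Btla, Cd28, Sh2d1a and Slamf6 (background 1.1%). Deviations of same-site libraries correlated at 0.10, -0.03 and 0.22 over 8755 genes, so the numbers were not taken to pair the libraries.

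Signs turned only in differences that had not passed. For Th2 minus naive T cells, no centring gave -0.32 for Cd40lg, -0.38 for Il21 and -0.51 for Slamf1, and a pseudocount of 10 gave 0.01 for Bcl6. For ILC2 minus Th2 cells no centring gave 0.20 for Cxcr5, and for ILC2 minus naive T cells equal numbers of peaks gave 0.02 for Icos. In heights, no centring gave -0.15 and uncalled libraries at 40 tags gave -0.12 for Icos region 4 (ILC2 minus naive T). The latter setting also gave 0.22 and -0.12 for Bcl6 region 1 (Th2 minus naive T, ILC2 minus Th2) and -0.31 for Il21 region 1 (ILC2 minus Th2), and tags per kb gave 0.29 for Cxcr5 region 1 (Th2 minus naive T). With 1 library left out, Th2 minus naive T sums ran from -0.12 to 0.04 for Bcl6, 0.00 to 1.64 for Icos, -0.74 to 1.11 for Il21 and -0.35 to 0.47 for Slamf1. ILC2 minus naive T sums ran from -0.97 to 0.67 for Icos and -0.40 to 1.0 for Pdcd1. Heights ran from -0.65 to 0.70 for Icos region 4 and -0.36 to 1.64 for Pdcd1 region 2 (ILC2 minus naive T), -0.12 to 0.07 for Bcl6 region 1 (Th2 minus naive T) and -0.01 to 0.17 for Il21 region 1 (ILC2 minus Th2). With genes within 10 kb, Cxcr5 was lower in ILC2s than in Th2 cells (log2 -0.70, limma adjusted p = 0.033). The cause of these changes was not tested. Peaks near 40 tags set the limit of what a call can show.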

Other observations

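Over the 8 libraries, the gene whose log2(summed tags + 40) followed that of a member most closely, among 13535 compared, was Dpp4 for Il21r (Pearson r = 0.992), Gpr12 for Cxcr5 (0.99) and Ddhd1 for Bcl6 (0.997). For Il21 it was Mettl21a (0.964), for Icos Cwc27 (0.992) and for Pdcd1 Polk (0.981). For Cd40lg it was Utp18 (0.993) and for Slamf1 Slx4ip (0.996). Lat, an adaptor of the T cell receptor, was next for Il21r (0.99). The 8 points share libraries, depth and cell type, and a nearest match among so many genes is high in any case, so these are descriptions.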
